A study of Bubalus bubalis with 12 samples.

Results

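The 10 genes TP63, KLF4, KLF5, GRHL1, GRHL2, GRHL3, OVOL1, PAX9, PITX1 and ISL1 encode transcription factors, mostly of squamous and foregut epithelium. They were chosen by name, as the rows of the deposited expression table that carry these symbols, and the rule uses no measured value. All 10 were found among the 34037 genes of the table, and all 10 were among the 12642 genes with enough reads to be tested, 9 of them in every animal and ISL1 in 4 treated animals only. Their NCBI gene identifiers in the table are 102398919 for TP63, 102409178 for KLF4, 102398140 for KLF5, 102391728 for GRHL1, 102390585 for GRHL2, 102395837 for GRHL3, 102396057 for OVOL1, 102399259 for PAX9, 102400675 for PITX1 and 102405894 for ISL1. The ruminal wall of 12 dairy buffaloes of the Italian Mediterranean breed was profiled by stranded sequencing of total RNA, with 1 library per animal and no pooling. The 6 control animals ate a total mixed ration (TMR). In the treated group, also of 6 animals, green ryegrass was mixed into the ration and made up about 30% of it. The ryegrass replaced part of the corn silage and most of the alfalfa hay, and soybean meal was left out, so that the treated ration differed in more than the fresh forage. Both diets had been balanced for nitrogen and energy. All animals were adult females in milk whose slaughter had been planned, and the biopsies held every layer of the wall that the cut took in. Expression is given in FPKM, which scales the fragments of a gene by its length and by all counted fragments of the animal.

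The inner surface of the rumen is a stratified squamous epithelium, in which cells divide in the basal layer, move upwards and cornify. p63, the product of TP63, is required for stratified epithelia to form and maintains their basal cells, and KLF5 is a factor of the dividing cells. KLF4 and OVOL1 act as cells leave the basal layer and differentiate. The grainyhead-like factors GRHL1, GRHL2 and GRHL3 control genes of cell junctions and of the surface barrier. PAX9 and PITX1 are regional factors of the oral and upper digestive epithelium, and ISL1 is a LIM-homeodomain factor best known from motor neurons, pancreatic islets and the developing heart.

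The libraries held between 10531541 and 12948372 counted fragments. Control replicate 6 and treated replicate 6 stood apart from the rest. Their median correlation with the other libraries was 0.925 and 0.923, while it lay between 0.937 and 0.960 for the other 10 animals. Control replicate 6 was also the library with the fewest fragments. Results that rest on these animals are given with and without them.

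The factors spanned a wide range of levels in every animal. PITX1 had the highest mean level, 283 ± 65.8 FPKM (SD, n = 12), above 98.0% of the genes tested. KLF5 followed with 123 ± 30.2 FPKM and PAX9 with 74.6 ± 15.8 FPKM. GRHL1 was at 42.8 ± 10.2 FPKM, TP63 at 39.2 ± 6.29 FPKM and OVOL1 at 32.5 ± 7.56 FPKM. These 6 factors each lay above at least 85.3% of the genes tested. GRHL3 was at 25.5 ± 7.10 FPKM, KLF4 at 21.6 ± 7.30 FPKM and GRHL2 at 14.8 ± 2.59 FPKM. ISL1 stood far below the rest with 1.87 ± 0.815 FPKM and exceeded only 18.0% of the genes tested.

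**Figure D1:**
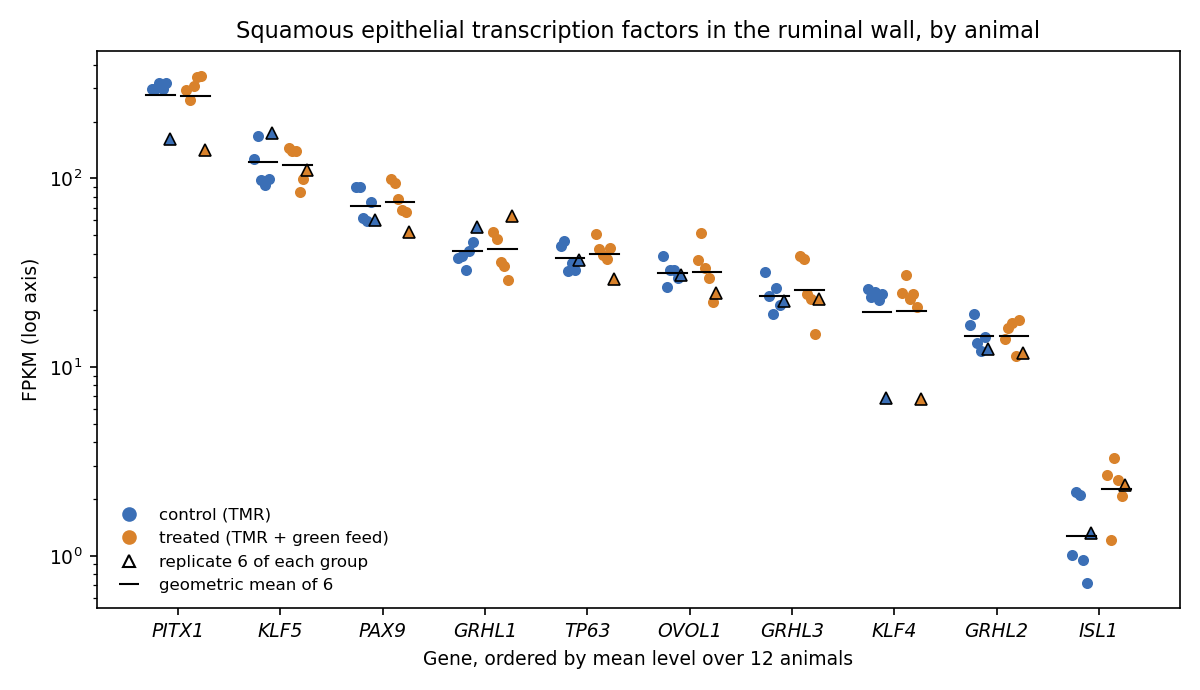
FPKM of the 10 transcription factors in each of the 12 animals on a log axis, with control animals in blue, treated animals in orange, replicate 6 of each group as a triangle and the geometric mean of each group of 6 as a black line. PITX1 is the highest and ISL1 the lowest of the factors, the colours overlap for every gene, and the triangles lie below all other points for KLF4 and PITX1.

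The order of the levels was tested within animals, by an exact sign-flip permutation test of the log2 difference between each gene and the next lower one, with Benjamini-Hochberg adjustment over the 9 pairs. In 6 of the 9 pairs the levels differed. The order holds for FPKM, which divides by gene length, from 2070 bases for PITX1 to 11357 for TP63. The test measures how alike the animals were and does not cover an error in these lengths. PITX1 exceeded KLF5 by 2.29-fold on the geometric mean and in 11 of 12 animals (adjusted p = 0.00220), and GRHL2 exceeded ISL1 by 8.54-fold in 12 of 12 animals (adjusted p = 0.00220). GRHL1 and TP63 could not be told apart by level, since GRHL1 was the higher one in 7 animals only (adjusted p = 0.447). Nor could KLF4 be separated from GRHL3 above it (adjusted p = 0.192) or from GRHL2 below it (adjusted p = 0.0534). Over the 10 animals without the replicates 6, however, KLF4 exceeded GRHL2 in 10 of 10 by 1.62-fold (exact sign-flip permutation test, adjusted p = 0.00352), and 7 of the 9 pairs differed. Among the paralogues of the grainyhead-like family, GRHL1 was thus the highest and GRHL2 the lowest in mean level.

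The comparison of the diets asked whether green feed was accompanied by a change in these factors. Of the 10 factors, 1 passed the call rule used here, a nominal limma p below 0.05, which was ISL1, higher in treated animals. The study set the same cutoff on nominal p-values from edgeR, so that only the cutoff is shared. ISL1 entered the test through treated animals alone, since 4 of them and no control reached the 42 TMM-scaled reads of the filter (the highest control stood at 41.4), so that the count of calls supports nothing on its own. With all genes above 0, or all genes of at least 0.1 FPKM in 6 animals, the nominal limma p of ISL1 was 0.0229 and 0.0213. Over all genes tested, 157 passed the same rule, or 1.24%, of which 100, or 0.791%, were higher and 57, or 0.451%, lower in treated animals. None of the 12642 genes reached an adjusted p below 0.05 with limma, the smallest adjusted p being 0.9997. The median log2 fold change was 0.02 over the 10 factors and 0.01 over all genes tested. In a bulk sample, fewer cells of a type and less RNA per cell cannot be told apart.

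ISL1 was detected in every animal, but from few reads. The control animals ranged from 0.722 to 2.18 FPKM with a median of 1.16 FPKM, and the treated animals from 1.21 to 3.32 FPKM with a median of 2.45 FPKM. The groups overlapped, although 4 treated animals lay above every control, 3 controls lay below every treated animal and all 6 treated animals exceeded the control median. The lowest treated animal was replicate 2, and the highest controls were replicates 2 and 3 at 2.18 and 2.10 FPKM. ISL1 averaged 1.38 ± 0.619 FPKM under TMR and 2.37 ± 0.701 FPKM under green feed (SD, n = 6 per diet). On the log2 scale it was higher by 0.83 (SE 0.31), a 1.78-fold difference with a 95% interval from 1.11 to 2.84. Its nominal p was 0.0193 in limma, its adjusted p was 0.9997 and its exact permutation p was 0.0303.

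Behind these values stood 14 to 43 reads per control animal and 23 to 63 reads per treated animal, or 159 and 272 reads in the whole groups. The exact 95% counting interval of the lowest control, replicate 5, ran from 0.395 to 1.21 FPKM, and that of the highest treated animal, replicate 3, from 2.55 to 4.24 FPKM. Such intervals cover counting error only. The nominal limma p stayed below 0.05 whichever animal was left out, between 0.00487 and 0.0484. The exact permutation p rose above 0.05 in 8 of the 12 cases, namely without control replicate 1 (0.0606), 4 (0.0606), 5 (0.0649) or 6 (0.0519) and without treated replicate 1 (0.0649), 3 (0.0714), 4 (0.0649) or 6 (0.0628). Without both replicates 6 the log2 fold change was 0.83, with a nominal p of 0.0423 and an exact permutation p of 0.0714. ISL1 is one of the genes that the study selected as changed in the same animals, so its direction here is not independent evidence.

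**Figure D2:**
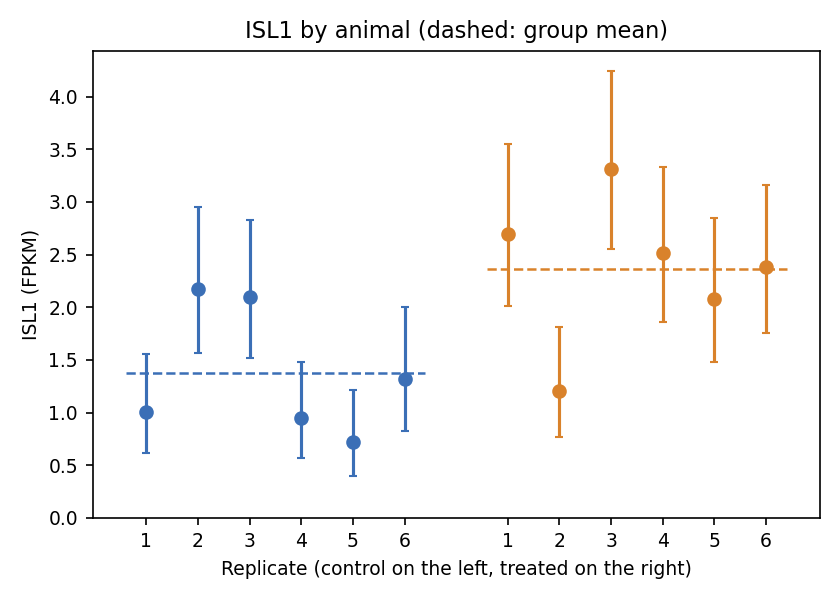
ISL1 in FPKM for each animal, with controls on the left and treated animals on the right, exact 95% Poisson counting intervals as bars and the group means of 1.38 and 2.37 FPKM as dashed lines. Most treated animals lie above most controls, while treated replicate 2 at 1.21 FPKM and control replicates 2 and 3 lie in the range of the other group.

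Since a biopsy of the wall can hold epithelium, connective tissue and muscle in varying shares, ISL1 was also set against epithelial genes of the same animal. Relative to the mean log2 level of 12 basal epithelial genes, ISL1 was higher by 0.77 on the log2 scale in treated animals (exact permutation p = 0.0823). Relative to 13 genes of epithelial identity the difference was 0.82 (p = 0.0606 in the exact permutation test), and relative to 11 suprabasal and cornifying genes it was 0.85 (exact permutation p = 0.134). The size of the difference was therefore close to that of the plain FPKM, with a wider spread. The suprabasal genes include KRT10, SBSN and ABCA12, which each fell to 0 FPKM in some animal, and such values weigh on their mean log2 level. The neuronal marker ELAVL4 and the glial marker SOX10 were at 0 in every animal. The correlation of log2 ISL1 with the summed level of each of 10 marker lists lay between −0.41 and 0.17 over the 12 animals, and no adjusted p was below 0.46.

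TP63 and KLF5, the factors of basal and dividing cells, did not pass the test. TP63 ranged from 32.3 to 46.7 FPKM in controls, with a median of 36.4, and from 29.3 to 50.6 FPKM in treated animals, with a median of 41.0. The groups overlapped widely, but 5 of 6 treated animals lay above the control median. TP63 averaged 38.1 ± 5.86 FPKM under TMR and 40.4 ± 7.03 FPKM under green feed (SD, n = 6 per diet), which is a log2 difference of 0.08 (SE 0.14, nominal limma p = 0.573, exact permutation p = 0.571). The 95% interval of its fold change, from 0.86 to 1.30, was the narrowest of the 10 factors on the log scale. Without both replicates 6 the log2 difference of TP63 was 0.16 (SE 0.12, nominal limma p = 0.211, exact permutation p = 0.246).

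KLF5 lay between 91.8 and 175 FPKM in controls, with a median of 113, and between 85.2 and 144 FPKM in treated animals, with a median of 125. The highest value of all belonged to control replicate 6, and no treated animal exceeded every control. KLF5 had a log2 fold change of −0.05 (SE 0.19), and the 95% interval of the fold change ran from 0.72 to 1.29. Without both replicates 6 its sign turned to 0.07.

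KLF4 and OVOL1, which act in cells leaving the basal layer, had almost the same mean in both groups. KLF4 averaged 21.4 ± 7.21 FPKM under TMR and 21.8 ± 8.08 FPKM under green feed (SD, n = 6 per diet). In controls it ranged from 6.89 to 26.1 FPKM with a median of 23.9, and in treated animals from 6.80 to 31.0 FPKM with a median of 23.6. Both lowest values came from the replicates 6, and without these animals no value was below 20.8 FPKM.

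KLF4 had a log2 fold change of 0.01, and its SE of 0.38 was the largest among the factors. Its 95% interval of the fold change, from 0.57 to 1.78, spanned differences as large as the one estimated for ISL1. Without both replicates 6 the log2 fold change was 0.02 and the SE fell to 0.10. OVOL1 ranged from 26.7 to 39.0 FPKM in controls, median 31.7, and from 22.2 to 51.1 FPKM in treated animals, median 31.6. The treated animals enclosed the whole range of the controls, and OVOL1 had a log2 fold change of 0.00 (SE 0.18).

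None of the 3 grainyhead-like factors passed the test. Under TMR and under green feed, GRHL1 averaged 41.9 ± 7.75 and 43.7 ± 12.9 FPKM, GRHL2 14.7 ± 2.70 and 14.8 ± 2.73 FPKM, and GRHL3 24.2 ± 4.51 and 26.9 ± 9.28 FPKM (SD, n = 6 per diet). GRHL1 ranged from 32.8 to 55.1 FPKM with a median of 39.9 in controls and from 28.8 to 63.1 FPKM with a median of 41.9 in treated animals. GRHL2 ranged from 12.2 to 19.1 FPKM with a median of 13.9 in controls and from 11.5 to 17.9 FPKM with a median of 15.1 in treated animals. The groups overlapped for both genes, and the highest GRHL1 value in each group was that of replicate 6.

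GRHL3, the member needed for the epidermal barrier, had the largest fold change of the family. It ranged from 19.2 to 32.0 FPKM with a median of 23.1 in controls and from 15.1 to 38.9 FPKM with a median of 23.6 in treated animals. The extremes in both directions were treated animals, and 2 of them lay above every control. The log2 difference was 0.10 (SE 0.21) for GRHL3, 0.03 (SE 0.19) for GRHL1 and 0.00 (SE 0.15) for GRHL2. The 95% interval of the fold change of GRHL2 ran from 0.80 to 1.26, that of GRHL1 from 0.77 to 1.35 and that of GRHL3 from 0.78 to 1.47.

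The regional factors PAX9 and PITX1 did not pass the test either. PAX9, which patterns the foregut and oral epithelium, ranged from 59.3 to 90.4 FPKM with a median of 68.4 in controls and from 51.9 to 99.7 FPKM with a median of 73.1 in treated animals. PAX9 had a log2 fold change of 0.06 (SE 0.17), and the groups overlapped. PITX1, a factor of oral ectoderm and hindlimb, ranged from 163 to 322 FPKM with a median of 298 in controls and from 141 to 349 FPKM with a median of 303 in treated animals. The lowest value of each group was again that of replicate 6, and the other 10 animals lay within 1.33-fold of each other. PITX1 had a log2 fold change of −0.02 (SE 0.23), and without both replicates 6 it was 0.02 (SE 0.10).

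Across the 9 factors without a call, the log2 fold changes thus lay between −0.05 and 0.10, with a median size of 0.03. The median size over all genes tested was 0.09. That value includes called genes, while the 9 factors were picked for lacking a call, so that no conclusion is drawn from the comparison. For none of the 10 factors did the groups fail to overlap, as they did for 7 of the genes tested, or 0.0554%. Leaving out both replicates 6 left ISL1 as the single call among the factors, while the share of all genes called rose to 2.48%.

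**Figure D3:**
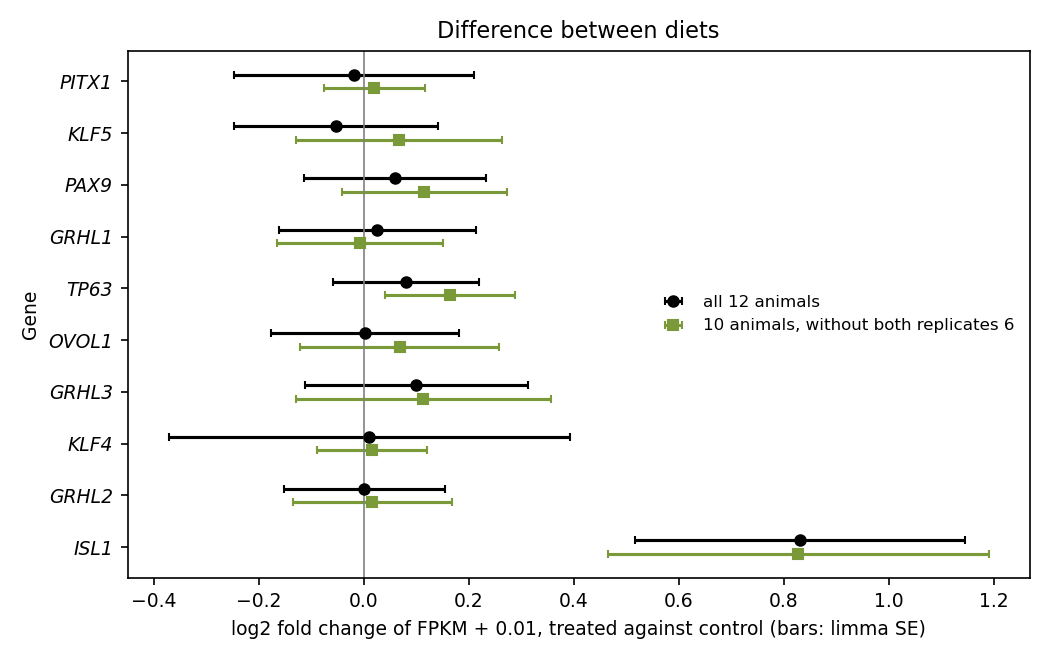
Log2 fold change of FPKM + 0.01 between treated and control animals for each factor, with limma standard errors as bars, in all 12 animals (black circles) and in the 10 animals without both replicates 6 (green squares). ISL1 stands at 0.83 in both, the other factors lie around 0, and the bars of KLF4 and PITX1 shorten without the replicates 6.

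The replicates 6 differed from the other animals of their groups in some factors. In KLF4 the control and the treated replicate 6 were at 6.89 and 6.80 FPKM, which is 0.282 and 0.279 times the median of the other 5 animals of their group. In PITX1 they were at 163 and 141 FPKM, or 0.544 and 0.455 times that median. GRHL1 moved the other way, with 55.1 and 63.1 FPKM in the replicates 6, or 1.43 and 1.75 times the median of the other 5 animals of their group, above all other 10 animals. KLF4 and PITX1 were thus the 2 of 10 factors at which both replicates 6 lay below every other animal, and GRHL1 the 1 factor at which both lay above. Among all genes tested, 19.4% lay below in this way and 8.68% above, so that the counts among the factors were near those of genes at large.

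The SD of log2 KLF4 over the animals was 0.73 with the replicates 6 and 0.15 without them, and that of PITX1 was 0.42 and 0.12. With the replicates 6 left out, these 2 factors thus became the least variable of the 10. The remaining factors changed less in spread, and the highest over the lowest value among the 10 other animals was 1.57 for TP63, 1.96 for KLF5, 2.58 for GRHL3 and 4.59 for ISL1. Of the 12 basal genes measured, 5 lay below the other 10 animals in both replicates 6, among them KRT5, ITGB4, COL17A1 and LAMB3, and 7 did not, against 19.4% of all genes tested. ITGA6 was highest of all animals in control replicate 6 (75.7 FPKM) and PERP in treated replicate 6 (941 FPKM). KRT5, the keratin of basal cells, was at 451 and 498 FPKM in them and at no less than 1179 FPKM in the rest. TP63 did not share this, since control replicate 6 lay at 37.0 FPKM inside the range of the other animals, while treated replicate 6 was the lowest of all at 29.3 FPKM. Of the genes of epithelial identity, 4 of 13 lay below, which were ESRP2, ST14, PPL and EVPL, and of the suprabasal genes 1 of 11, KRT10. The fibroblast markers of the replicates 6 summed to 222 and 182 FPKM, near the top of the range of all animals, while the endothelial markers summed to 9.70 and 31.9 FPKM. The part of these differences in the levels of KLF4, PITX1 and GRHL1 was not tested.

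**Figure D4:**
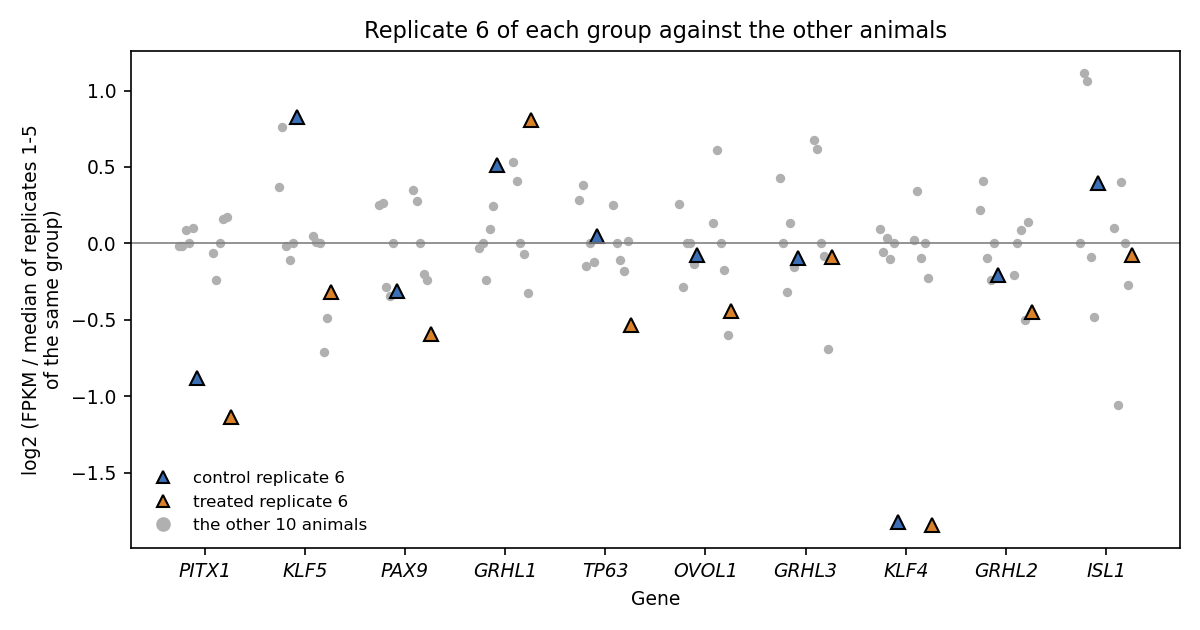
Log2 ratio of each animal's FPKM to the median of replicates 1 to 5 of its own group, for the 10 factors, with control replicate 6 as a blue triangle, treated replicate 6 as an orange triangle and the other 10 animals in grey. Both triangles lie far below the grey points for KLF4 and PITX1 and above them for GRHL1.

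To see which factors varied together, Pearson correlations of log2 FPKM were computed for the 45 pairs. Because the replicates 6 form a group of their own for several factors, the values over the other 10 animals are described first, with permutation p-values (100000 resamples) adjusted over the pairs. In 6 pairs the adjusted p was below 0.05, and in each of them it was 0.0461. OVOL1 was high where KLF4 (r = 0.89, rho = 0.75) and GRHL3 (r = 0.84, rho = 0.78) were high, and the same held for GRHL1 with GRHL3 (r = 0.81, rho = 0.76) and for KLF5 with PAX9 (r = 0.86, rho = 0.85). PITX1 ran opposite to OVOL1 (r = −0.82, rho = −0.76) and to GRHL3 (r = −0.81, rho = −0.90). By Spearman's rho the pair of GRHL3 and PITX1 alone kept an adjusted permutation p below 0.05 (0.0378), while it was 0.0632 for KLF5 with PAX9 and 0.102 for the other 4. With the 2 animals farthest from the median of the first gene left out, r fell to 0.48 for KLF4 with OVOL1, to 0.56 for GRHL1 with GRHL3 and to −0.39 for OVOL1 with PITX1, so that these 3 relations rested on those animals, and it was 0.82, 0.90 and −0.81 for GRHL3 with OVOL1, KLF5 with PAX9 and GRHL3 with PITX1. All FPKM of an animal share its library and its total, so that the values of 2 genes are not independent.

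Of the 45 correlations over the 10 animals, 29 were positive, with a median of 0.27. TP63 had its largest correlations with PAX9 (r = 0.76, adjusted permutation p = 0.0820) and KLF5 (r = 0.74, adjusted permutation p = 0.0875). ISL1 correlated with no other factor beyond r = 0.36 in size.

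Over all 12 animals, 3 pairs had an adjusted permutation p below 0.05. TP63 correlated with PAX9 (r = 0.82, rho = 0.80) and GRHL3 with OVOL1 (r = 0.82, rho = 0.73), both with an adjusted permutation p of 0.0249 for r and of 0.0628 and 0.111 for rho. GRHL1 and PITX1 ran opposite to each other (r = −0.81, adjusted permutation p = 0.00675, and rho = −0.85, adjusted permutation p = 0.0405). With the 2 animals farthest from the median of the first gene left out, r was 0.67, 0.74 and −0.69 and no pair kept an adjusted permutation p below 0.05. The relation of KLF4 and PITX1 turned with the replicates 6. Over all 12 animals r was 0.91 (adjusted permutation p = 0.137) and rho was 0.09. Over the 10 other animals r was −0.72 (adjusted permutation p = 0.0875). With the 2 animals farthest from the median of KLF4 also left out of these 10, r was 0.08, so that no direction is given for this pair.

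**Figure D5:**
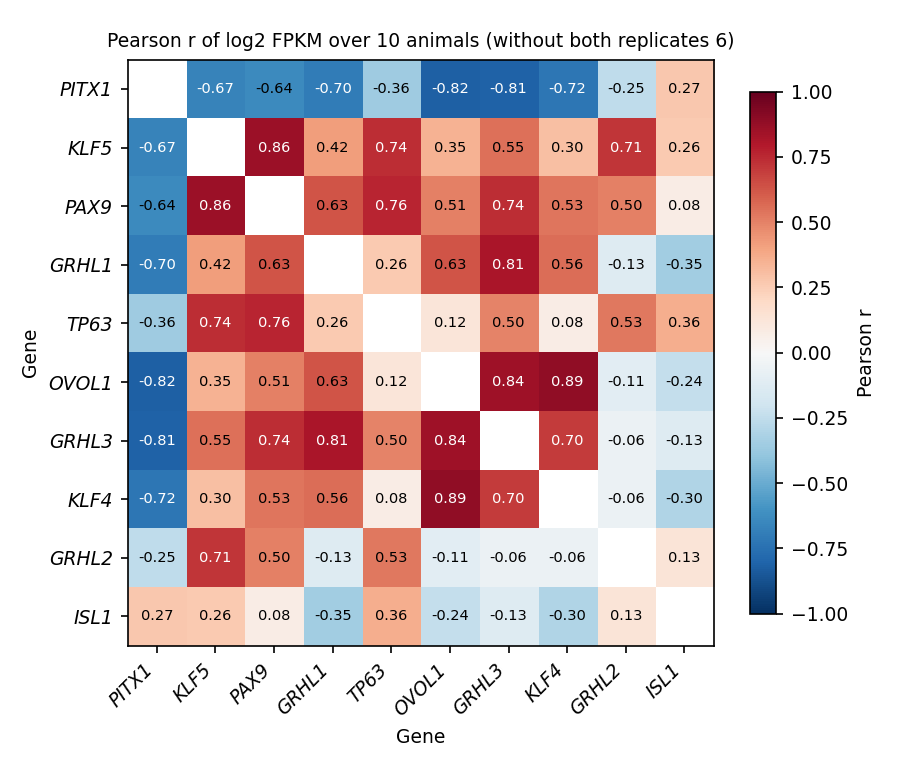
Pearson correlation of log2 FPKM for each pair of factors over the 10 animals without both replicates 6, from −1 in blue to 1 in red. KLF5 and PAX9, and OVOL1 with KLF4 and GRHL3, vary together at 0.84 or above, and the row of PITX1 is blue for every factor but ISL1.

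The genes most alike to each factor over the 12 animals, by Pearson's r of log2 FPKM among all genes tested, are given as a description. For TP63 they included ZFP36L2 (r = 0.95) and ZBTB4 (r = 0.94), and for PAX9 they included TBC1D13 (r = 0.98) and CAMTA2 (r = 0.97). For GRHL3 they were BCL3 (r = 0.97), NFATC2IP (r = 0.91) and LRRC8A (r = 0.90), and BCL3 was also first over the 10 animals without the replicates 6 (r = 0.98). For OVOL1 they were FA2H (r = 0.93), KLF10 (r = 0.91) and PRPF38B (r = 0.89), and for GRHL2 they were GREB1 (r = 0.90), LARGE2 (r = 0.89) and USP21 (r = 0.88).

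For KLF5 the mitochondrial gene ND5 came first (r = 0.96), followed by LOC112585110 (r = 0.95) and MCCC2 (r = 0.94). For GRHL1 they were ERO1A (r = 0.95), STAT2 and SLC5A1 (r = 0.94 each). For KLF4 they were BAP1, OSBP and C2H6orf106 (r = 0.99 each), and for PITX1 they were FAM53B, SLC25A6 and GALK1 (r = 0.97 each). The values of KLF4 and PITX1 leaned on the replicates 6 to differing degrees. Over the other 10 animals r was 0.90 for KLF4 with BAP1, 0.66 with OSBP and 0.68 with C2H6orf106, and for PITX1 it was 0.70 with FAM53B, 0.58 with SLC25A6 and 0.83 with GALK1. For ISL1 the closest genes were RAB4B (r = 0.83), PLA2R1 (r = 0.79) and SWI5 (r = 0.79).

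Of 20 other regulators of stratified epithelium, 17 were tested. None of them passed the nominal threshold in limma, and they had a median log2 fold change of 0.07. EHF, an ETS factor of epithelia, had a log2 fold change of 0.03.

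The other genes of the epithelial programme that were listed did not pass the nominal threshold either. They were 12 basal genes (median log2 fold change 0.09), 11 suprabasal and cornifying genes (median −0.19) and 13 genes of epithelial identity (median −0.01). KRT5 and KRT15, the basal keratins with the highest levels, had log2 fold changes of 0.08 and 0.22, and KRT13 and TGM3, a suprabasal keratin and a transglutaminase of the cornified envelope, had −0.19 and −0.36. DSP and CLDN4, of desmosomes and tight junctions, had 0.07 and −0.03. The basal keratin KRT14 and the suprabasal KRT6A and SPRR3 were not analysed here, and KLK5 was at 0 in all animals. Mean levels of 1493 FPKM for KRT5, 1572 FPKM for KRT13 and 847 FPKM for KRT15 are those of a tissue with squamous epithelium, as the label of ruminal wall says.

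Markers of the muscle and connective tissue of the wall had negative median log2 fold changes. The 7 smooth muscle markers tested had a median log2 fold change of −0.72. One muscle marker, DES, was lower in treated animals by the nominal rule (log2 fold change −1.04, nominal limma p = 0.0271, exact permutation p = 0.0519). ACTG2, CNN1 and LMOD1 had too few reads for limma. ACTG2 averaged 0.851 FPKM under TMR and 0.307 under green feed, and CNN1 1.17 and 0.399 (exact permutation p = 0.0238 each). For LMOD1 the exact permutation p was 0.271. The summed level of all 10 muscle markers ranged from 18.6 to 44.2 FPKM in controls and from 6.79 to 33.0 FPKM in treated animals. The 8 fibroblast markers had a median of −0.66 with no call, and their sum ranged from 50.2 to 285 FPKM in controls and from 21.2 to 182 FPKM in treated animals. TAGLN and CALD1, with the highest levels among the muscle markers, had log2 fold changes of −0.90 and −0.69, and COL3A1 and LUM among the fibroblast markers −0.60 and −0.88. The call of DES was lost when control replicate 2, 3 or 6 or treated replicate 1, 2 or 5 was left out, and without both replicates 6.

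Endothelial markers had a median log2 fold change of −0.09 over 5 genes and immune markers of −0.13 over 3 genes, with no call in either list. PECAM1 and VWF had log2 fold changes of −0.08 and 0.07, and PTPRC and AIF1 had −0.13 and 0.33. Of the enteric neuron and glia markers only S100B could be tested (log2 fold change −0.49), and UCHL1 had at most 8 reads in an animal. Of the markers of interstitial cells of Cajal only KIT could be tested (log2 fold change −0.34), and ANO1 was at a mean of 0.142 FPKM.

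PAX9 followed the levels of some marker lists among animals. Over the 12 animals log2 PAX9 correlated with the summed genes of epithelial identity at r = 0.89 (adjusted permutation p = 0.0190) and rho = 0.91 (adjusted permutation p = 0.0160). With the summed fibroblast markers it correlated at r = −0.84 (adjusted permutation p = 0.0255) and rho = −0.81 (adjusted permutation p = 0.112). These were the 2 of 100 relations between factors and lists with an adjusted p below 0.05. Over the 10 animals without the replicates 6, r was 0.87 and −0.82 and the adjusted permutation p was 0.0612 for both. Without the 2 animals farthest from the median of PAX9, r was 0.84 and −0.80 and the adjusted permutation p was 0.110 for both.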

How the data were processed

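Ruminal wall RNA of 12 buffaloes, 6 per group, was compared between diets. The authors used Trimmomatic 0.39 for trimming, STAR 2.5.2b for alignment (build UOA_WB_1) and featureCounts 2.0.0 for strand-aware gene counts. The deposited values are FPKM, and the tool and gene lengths behind them are not given in the sources used here. Of 16 columns, 12 match the sample labels, and the other 4 were not used here.

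Reads were worked out from the steps of the FPKM within each gene, and for 22972 of 22972 genes above 0 they came out whole (tolerance on the gene length 0.02 bases). They served for depth (10531541 to 12948372 fragments), for the filter of 41.64 TMM-scaled reads in at least 1 animal and for voom. No 2 libraries were alike within counting error.

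log2(FPKM + 0.01) was tested with limma 3.58.1 in R 4.3.3 (eBayes with trend), with Benjamini-Hochberg adjustment over the 12642 genes tested. Fold changes are on this scale. The added 0.01 narrows those of low genes, while a value of 0 FPKM in an animal can widen them. Single genes were also tested by a two-sided exact permutation test over 924 assignments (smallest possible p 0.00216), and correlations by 100000 permutations, two-sided, in Python 3.11.15 with numpy 2.4.6. Methods were tested on simulated data.

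The factors and gene lists were chosen with earlier results of these data known. Named are the 10 factors, in each list the called genes and the 2 with the highest mean FPKM, and for each factor the 3 genes with the highest r over the 12 animals. Genes outside this rule, among them those low in both replicates 6, were named after their values were seen. Some genes that the rule names are not reported here. The alternatives were other pseudocounts, filters and scalings, robust empirical Bayes, a replicate block, muscle and fibroblast or basal covariates, voom, and each animal left out in turn. Leaving out both replicates 6 was chosen after seeing the data.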

Additional observations from a re-analysis of the deposited data

Results flagged for a closer look

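In 4 of the 20 sets of 6 values formed by a factor and a diet group, the lowest animal lay apart from the others on the log2 scale, with a gap to its nearest neighbour above 0.625 of the whole range. Chance gives about 1 such set in 20, but all 4 come from the same 2 libraries. For KLF4 the gap was 0.895 of the range in control replicate 6 (6.89 FPKM) and 0.739 in treated replicate 6 (6.80 FPKM). For PITX1 it was 0.879 in control replicate 6 (163 FPKM) and 0.685 in treated replicate 6 (141 FPKM). The same 2 libraries had the lowest median correlation with the other libraries over all genes tested, and 19.4% of these genes were lower in both than in the other 10 animals. Over all genes tested, control replicate 6 was lowest and set apart in this way in 7.26%, treated replicate 6 in 9.31% and both in 3.30%, so that such values are not particular to KLF4 and PITX1.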

How the results depend on the processing

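ISL1 kept its direction and a nominal limma p below 0.05 in all 24 alternatives, from 0.00487 to 0.0484, and no other factor was called in any. Apart from the other filters, these fits kept the filter that ISL1 had passed through treated animals alone. They also shared most of the animals, so that they are not separate support. The log2 fold change of ISL1 ranged from 0.67 to 1.01 with 1 animal left out and was 0.51 with a pseudocount of 1. The number of factors called was 1 throughout. By the exact permutation test it was 1 in all animals, between 0 and 1 with 1 animal left out and 0 without both replicates 6.

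The number of all genes called (157) ranged from 142 to 325 with 1 animal left out. It was 301 with the filter of 0.1 FPKM in 6 animals, 562 with all genes above 0, 278 with the basal covariate, 364 with the muscle and fibroblast covariate and 314 without both replicates 6. The listed genes called (1) ranged from 0 to 7 with 1 animal left out, and were 3 with the basal covariate (among them FGFR2 and DES) and 3 without both replicates 6 (among them OVOL2 and BNC1). With the muscle and fibroblast covariate the 1 call was ST14 in place of DES. DES is itself part of that covariate and FGFR2 of the basal one, so that these fits cannot decide on their calls. Of the 45 pairs of factors, 3 were called over 12 animals, 0 without the 2 farthest and 6 without both replicates 6. Of the relations with lists, 2 were called over 12 animals, 2 others without the 2 farthest (KLF5 with the other regulators and GRHL1 with the endothelial markers) and 0 without both replicates 6.

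The labels do not say that a replicate number stands for anything shared, and not every number showed it. The replicate numbers are those of the sample descriptions. The sample titles carry other numbers, under which no same-numbered control and treated animal share a number. Same-numbered animals correlated in their deviations between −0.01 and 0.42, with a mean of 0.21 against −0.04 for the other 30 pairs, and 4 of 6 numbers correlated best with their own, a hint from the data that some same-numbered animals deviated together. With the replicate number as a block, 322 genes and 4 listed genes (among them BARX2, FGFR2 and DES) were called, and ISL1 had a nominal limma p of 0.0247.

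The sign of factors near 0 turned, with no call. With the muscle and fibroblast covariate the log2 fold change was −0.042 for TP63, −0.29 for KLF4, −0.049 for GRHL1, −0.086 for GRHL2, −0.13 for GRHL3, −0.12 for OVOL1 and −0.14 for PAX9. With the basal covariate it was −0.11 for KLF4, −0.028 for GRHL2 and −0.012 for OVOL1, and with median ratio scaling −0.0035 for GRHL2 and −0.0023 for OVOL1. Without both replicates 6 it was 0.066 for KLF5, −0.0078 for GRHL1 and 0.020 for PITX1. With 1 animal left out it ranged from −0.29 to 0.32 for KLF4, −0.14 to 0.05 for KLF5, −0.091 to 0.14 for GRHL1, −0.058 to 0.080 for GRHL2, −0.021 to 0.25 for GRHL3, −0.14 to 0.11 for OVOL1, −0.024 to 0.16 for PAX9 and −0.17 to 0.17 for PITX1. The cause of these turns was not tested. With at most 63 reads per animal, ISL1 is the factor whose values depth limits most.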
